A study of Drosophila melanogaster with 4 samples.

Results

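Transcript levels after benzene vapour were compared with those of unexposed flies, on 1 array each of the 4 in the study. All flies were wild-type males of the Canton-S strain of Drosophila melanogaster, young adults of 1 to 2 days raised on cornmeal-agar food. The benzene group spent 24 h in mesh-covered food vials inside a bottle that held the vapour, and the control group received no treatment. The sources used here give neither the vapour concentration nor the number of flies per RNA preparation. The other arrays came from males of the same strain and age after 24 h of toluene or formaldehyde vapour, and they serve here as further points of comparison. Values are log2 probe set values, in which a step of 1 is a doubling, and ratios are benzene over unexposed.

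Genes were kept when the higher of their 2 values reached the median of that array, which left 8134 of the 11981 genes that had a probe set annotated to them alone. Of these, 145 differed by at least 1.4-fold (0.485 on the log2 scale) and are called members below. They comprise 111 higher genes (1.36% of the genes kept) and 34 lower genes (0.418%). The measured difference itself chose them, so their sizes are a description. Each group had 1 array, so no test, error or interval could be given, and a difference holds everything that separated those 2 RNA preparations and hybridisations.

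Benzene is a small aromatic hydrocarbon that enters through the airways, in flies the tracheae, and dissolves readily in fats. In mammals, cytochrome P450 enzymes oxidise it to an epoxide and to phenols, which are then conjugated with glutathione, sugar acids or sulfate, and its metabolites are toxic to blood-forming tissue. In the fly, the midgut, fat body and Malpighian tubules carry out most such chemistry. The midgut also secretes the proteases, lipases and glycosidases of digestion, and answers bacteria through the Imd pathway. Immune genes had the largest ratios on the benzene array. The 2 immune gene lists hold 17 of the 111 higher members and 0 of the 34 lower ones. These lists cover 21 and 49 of the 8134 kept genes, too few for the 0 to mean much. Of the genes on them, 42.9% and 16.3% were higher members, against 1.36% of all kept genes. Some of these members, edin and CecB among them, were kept through their benzene values alone. The account below concerns the other 128 members.

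The differences were mostly small. Outside the immune lists, 79 higher members lay between 1.4-fold and 2-fold, 15 between 2-fold and 4-fold and 0 beyond, and the lower members numbered 26, 7 and 1 in the same bands. Just inside the size rule stood the protease gene Jon25Bi (1.406-fold higher) and CG34232 (1.405-fold), and just outside it CG13795 and the metallothionein gene MtnB (both 1.399-fold). On the lower side CG14957 (-0.50) and CG2861 (-0.49) were just inside, and the beta-secretase gene Bace (-0.485) and CG31805 (-0.483) just outside. Kept genes were also ordered by control value and cut into 4 parts of equal size. The lowest part held 54 members, and the next ones 32, 22 and 37. For 19 higher members the control value lay below the array median, and the filter kept them through benzene alone. The filter itself thus adds to the lowest part. The 5 members with several probe sets had 6 further ones, all 6 with the same sign. Those of CG34040 (-1.84) and Tsf1 (1.31) passed the size rule. Those of Nepl11 (0.46), CG40485 (0.33) and CG2861 (-0.06), and another of Tsf1 (0.35), did not. The CG40485 and CG2861 ones and the dimmer Tsf1 one were below the array median.

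**Figure D1:**
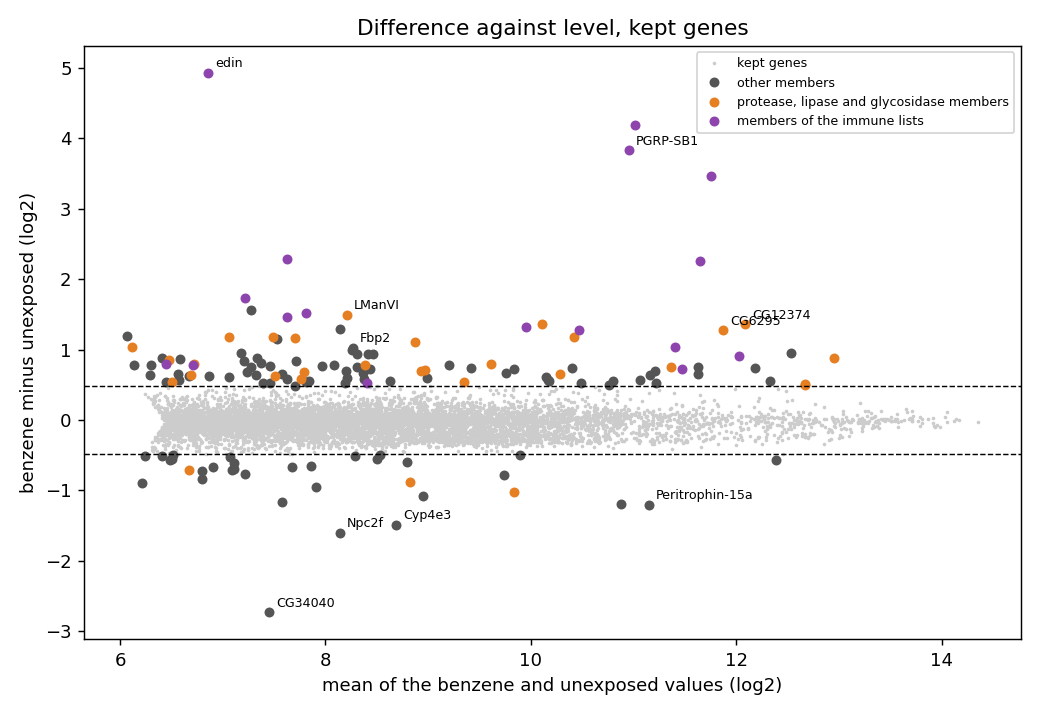
Benzene minus unexposed (log2) against the mean of the 2 values (log2) for all 8134 kept genes, with dashed lines at 1.4-fold. The top immune gene edin (purple) had a control value below background, so its difference is a lower bound of at least 21.9-fold. Protease, lipase and glycosidase members (orange) reach 1.497, and the lowest gene is CG34040 at -2.73.

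Array-wide values differed little, as did the medians of the array controls. The medians of the 4 arrays over probe sets that are not array controls ran from 6.42 to 6.46. Scaling brings such medians together, so they cannot show whether the RNA preparations were alike. The backgrounds, taken from 20 probe sets for control transcripts that were not added, ran from 4.64 to 4.88. The labelling spikes were slightly brighter on the benzene than on the control array (median 0.13 over 24 probe sets, from -0.003 to 0.51). The highest of these added transcripts thus passed the size rule of 0.485. GAPDH (0.13) and 18S rRNA (0.16) were also slightly brighter, whereas actin (0.00) and eIF-4a (0.02) were level. The excess of 3' over 5' signal, a sign of RNA quality, was 1.09 against 1.12 for actin and 0.93 against 0.99 for GAPDH (benzene against control). The male label was checked with the ovary and yolk list, of which 1 of 17 genes, Yp3, was bright enough to be kept (7.13 and 7.11).

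Protease, lipase and glycosidase genes made up 24.3% of the higher members and 2.59% of the kept genes. Of 211 kept genes for glycosidases, serine proteases, carboxypeptidases, neprilysins, cathepsins and lipases outside the immune lists, 27 (12.8%) were higher members and 3 (1.42%) lower ones, where 0.853% of the 7853 kept genes in neither these nor the immune lists were higher members. Their median log2 ratio was 0.07, against -0.02 over all kept genes. RNA came from flies with no tissue named in the labels, and in such bulk samples more cells of a type and more RNA per cell cannot be told apart. The families were put together after the values had been seen, and 5 of the 27 reached the array median with benzene but not without exposure, so these shares describe the set and support nothing further.

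Of 127 kept genes for serine proteases and their homologues outside the immune lists, 14 were higher members and 0 lower. The higher share was 11.0%, against 1.36% of all kept genes. Not all of these genes act in digestion. The list of gut proteases, with the trypsin- and chymotrypsin-like enzymes that start protein digestion, had 7 higher members of 25 kept genes (28%). CG18179 stood at 9.42 without exposure, 10.79 with benzene, 10.34 with toluene and 10.80 with formaldehyde, a benzene ratio of 2.59-fold. Its neighbour CG18180 read 12.51, 13.39, 13.26 and 13.12 in the same order (1.84-fold). For both genes the control array was lowest and the 3 exposed arrays lay close together. A different order was seen for the Jonah genes, which encode abundant gut chymotrypsins. Jon99Ci read 10.99 without exposure and 11.74 with benzene, but 11.07 with toluene and 11.05 with formaldehyde. Jon74E read 12.41, 12.92, 12.42 and 12.16, and Jon25Bi 12.43, 12.92, 12.22 and 12.13. For these 3 genes benzene stood above each of the other arrays, which hardly differed from the control or were below it.

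Other serine protease members differed by less than 1 on the log2 scale. The trypsin genes iotaTry (6.05 without exposure, 6.90 with benzene) and lambdaTry (8.61 and 9.33) had ratios of 0.85 and 0.71. Ser8 was 1.72-fold and CG8952 1.74-fold higher, and CG30002, Erasp, CG9377 and CG11912 had log2 ratios between 0.63 and 0.69. Hayan, a protease of the blood that acts in melanisation and wound responses rather than in digestion, read 6.32 and 7.11. The filter kept iotaTry, Hayan and CG9377 through benzene alone, so the protease shares of 11.0% and 28% are a description. The gut trypsin gene betaTry was at 0.13 and Jon65Aiv at -0.15, so neither was a member.

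Zinc carboxypeptidases, which trim residues from the ends of peptides, had 3 higher members of 12 kept genes (25%, against 1.36% of all kept genes). CG12374 read 11.41 without exposure, 12.77 with benzene, 11.67 with toluene and 11.57 with formaldehyde (2.57-fold). Benzene stood clear of all other arrays. CG18585 read 6.47, 7.64, 7.13 and 7.51, and CG7025, its immediate neighbour in the genome, 5.60, 6.64, 6.01 and 6.001 in the same order. The filter kept CG7025 through its benzene value alone, so the share of 25% is a description. The other 9 kept carboxypeptidase genes lay between -0.23 and 0.45, with CG14820 at the upper end and CG8564 at the lower.

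Further peptidases followed. Of 14 kept neprilysin genes, which encode membrane or secreted metallopeptidases, 3 were higher members (21.4%, against 1.36% of all kept genes). Above 0 were 10 of the 14, and 3493 of all 8134 kept genes. The neprilysin median was 0.30, and 0.16 over all 26 on the array. Nepl15 led with 7.12 without exposure, 8.28 with benzene, 8.01 with toluene and 7.99 with formaldehyde. Nepl11 and Nepl13 had ratios of 0.54 and 0.53, and Nepl21 (0.48) was just short of the size rule. Nepl13 (6.24 without exposure) was kept through its benzene value alone, so the share of 21.4% is a description. Among the cathepsins, CtsL3 read 6.90, 8.08, 7.68 and 8.56, and so was highest with formaldehyde. The broadly used lysosomal cathepsins did not share this: CtsL1 was at -0.05 and CtsB at -0.10.

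**Figure D2:**
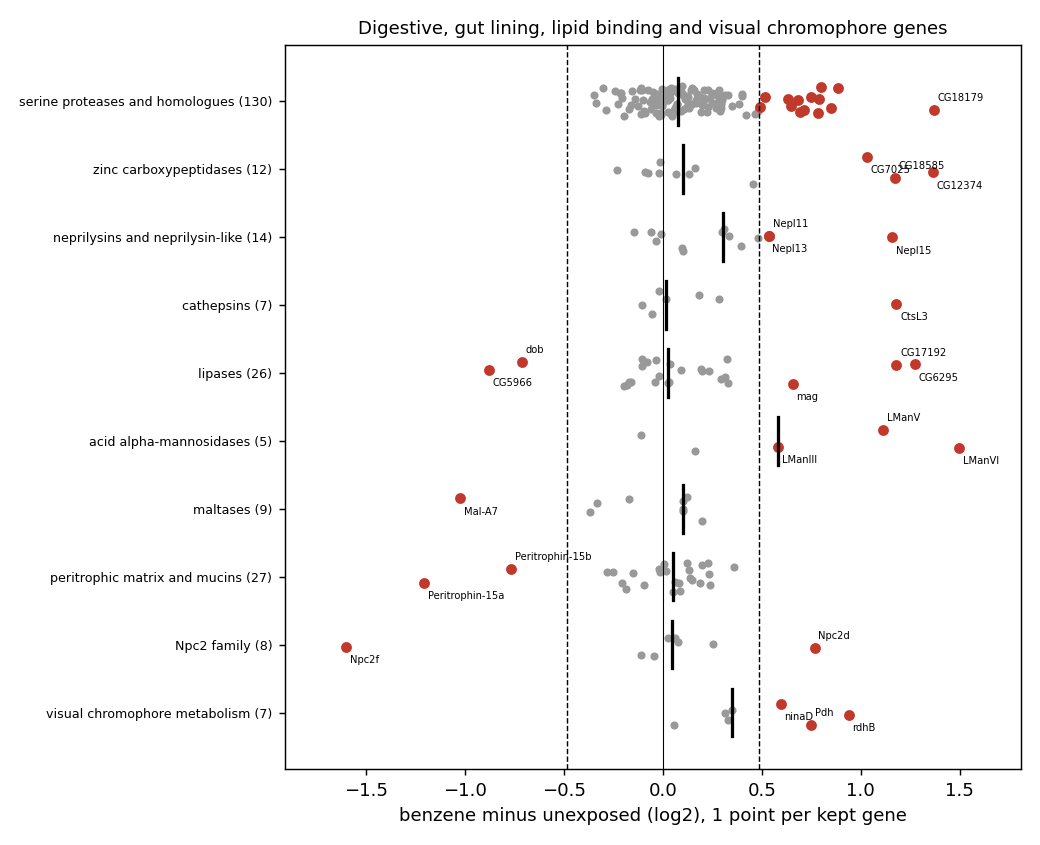
Benzene minus unexposed (log2) for each kept gene of 10 families, with members in red, family medians as black bars, 1.4-fold as dashed lines and the number of kept genes in brackets. Proteases and carboxypeptidases have members on the higher side alone, whereas lipases and the Npc2 family have members on both sides.

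Lipases went both ways. Of 26 kept lipase genes, 3 were higher members (11.5%), 2 were lower ones (7.69%) and the median was 0.03. The shares over all kept genes were 1.36% and 0.418%. CG6295, a pancreatic-type lipase gene, read 11.23 without exposure, 12.51 with benzene, 12.11 with toluene and 11.71 with formaldehyde (2.42-fold). CG17192, the next gene along the chromosome and a relative, read 9.83, 11.01, 10.08 and 9.58, so that only benzene stood above the control by the size rule. The gut lipase gene mag (magro), whose product digests dietary fat and cholesterol esters, was 1.58-fold higher (9.96 and 10.62). On the lower side, CG5966 read 9.27, 8.39, 9.47 and 9.08, and the patatin-type lipase gene dob read 7.03, 6.32, 7.05 and 6.65. A probe set shared by CG6271 and CG6277, of the same cluster as CG6295, was lower as well (9.57 and 8.89). The storage-fat lipase gene bmm (brummer) differed little, at -0.17.

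Glycosidases showed the same division. Of 5 kept acid alpha-mannosidase genes, 3 were higher members (60%, against 1.36% of all kept genes). These 3 are neighbours in the order of kept genes. LManVI read 7.46 without exposure, 8.96 with benzene, 7.97 with toluene and 7.997 with formaldehyde (2.82-fold). LManV read 8.32, 9.43, 8.96 and 8.97, and LManIII 7.47, 8.05, 7.93 and 7.74. LManII was instead at -0.11. Ect3, which encodes a beta-galactosidase, read 6.96, 8.11, 7.09 and 7.19, and so separated benzene from the other 3 arrays. Of 9 kept maltase genes, whose products split maltose and sucrose, 1 was a member: Mal-A7 read 10.35, 9.33, 10.56 and 10.23, that is 2.03-fold lower with benzene. Mal-A8 (-0.37) and Mal-A1 (-0.33) were also below 0, and Mal-A6 (0.20) was the highest.

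A few genes of the gut lining, and 1 proton pump gene of acid-secreting cells, were lower members. Peritrophin-15a encodes a small chitin-binding protein of the peritrophic matrix, the sheath between food and midgut cells. It read 11.75 without exposure, 10.55 with benzene, 11.06 with toluene and 11.17 with formaldehyde. Its neighbour Peritrophin-15b read 7.60, 6.83, 6.88 and 6.996, so all 3 exposed arrays lay below the control for both genes. They were the only members among 27 kept genes for peritrophins, mucins and chitinases (7.41% lower, against 0.418% of all kept genes). Of these 27 genes, 16 were above 0, and their median was 0.05. Vha100-4, for a proton pump subunit found in the acid-secreting copper cells of the midgut, read 7.22, 6.38, 7.11 and 6.81. It was the only member of 31 proton pump genes (3.23% lower, against 0.418% of all kept genes). Of these, 23 were below 0, where 57.1% of all kept genes were, with Vha16-2 at -0.41 and Vha100-3 at -0.35. The subunits used in every tissue, such as Vha16-1 (-0.02) and Vha55 (0.00), were level. In the enterocyte marker list, lambdaTry and Vha100-4 were the members, and mex1 was at -0.46, nub at 0.13, mesh at -0.11. The list median was -0.0048, and turned positive under median centring and under quantile normalisation.

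Npc2 proteins bind sterols and other lipids. Npc2f had the second lowest ratio of all: it read 8.94 without exposure, 7.34 with benzene, 8.66 with toluene and 8.70 with formaldehyde, a level 3.03-fold lower with benzene. Npc2d was a member in the other direction, reading 7.58, 8.35, 8.09 and 7.997. The other 6 kept genes of the family, Npc1a included, lay between -0.11 and 0.26. Npc2a and Npc2b, expressed in many tissues, were at 0.03 and -0.04.

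CG34040 had the lowest ratio. It read 8.82 without exposure, 6.09 with benzene, 8.83 with toluene and 8.46 with formaldehyde, which is 6.63-fold lower. A second probe set read 8.42, 6.58, 8.41 and 8.15. On both, the 3 other arrays lay close together and benzene stood apart.

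**Figure D3:**
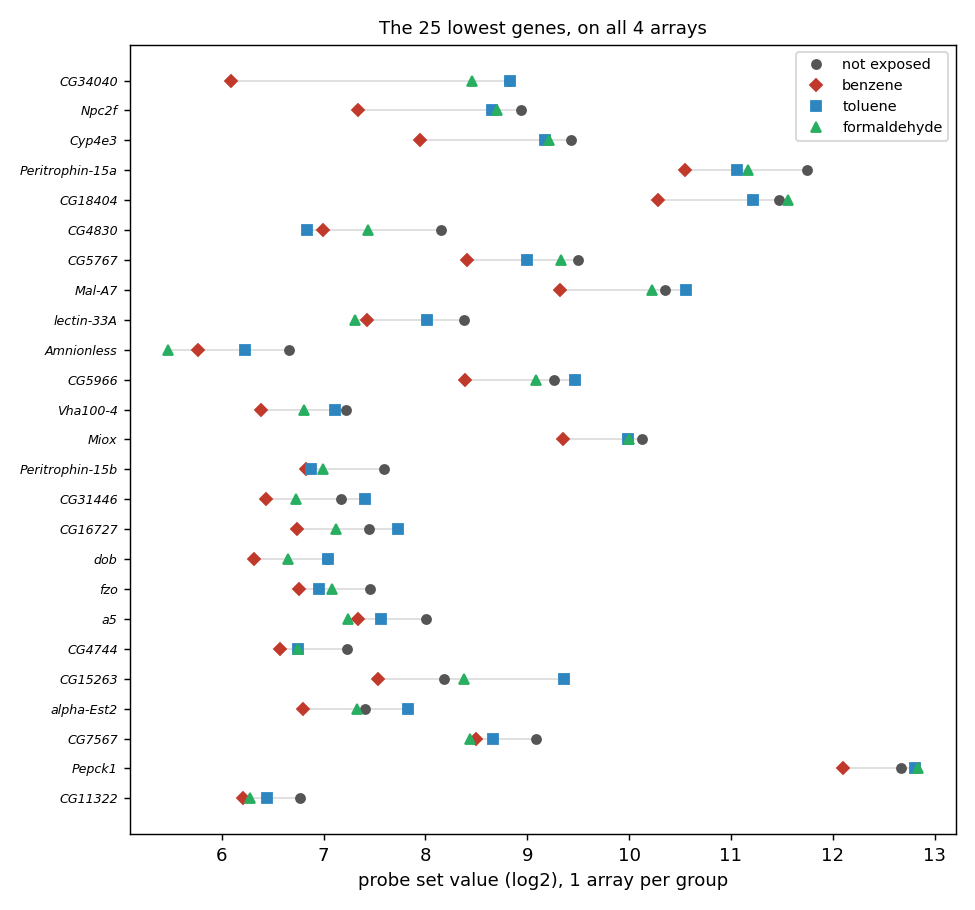
Probe set values (log2) of the 25 lowest genes on each of the 4 arrays, 1 point per array, ordered by the benzene ratio from -2.73 to -0.56. The benzene point (red) is the lowest of the 4 for 20 of them.

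Genes of foreign compound metabolism had members in both directions. Of 59 kept cytochrome P450 genes, 3 were higher members (5.08%, against 1.36% of all kept genes), 1 was lower, 31 were above 0 and the median was 0.01. Cyp4e3 read 9.43 without exposure, 7.94 with benzene, 9.18 with toluene and 9.21 with formaldehyde, a 2.81-fold lower level that the other exposed arrays did not share. Cyp4d1 read 6.79, 7.62, 7.28 and 7.42, Cyp309a1 7.93, 8.69, 9.04 and 8.41, and Cyp313a3 6.29, 6.86, 6.58 and 6.01. Of these 3, only Cyp4d1 and Cyp313a3 were highest with benzene, and Cyp313a3 was kept through its benzene value alone.

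Conjugation enzymes added 2 glutathione S-transferase genes of 33 kept (6.06% higher, against 1.36% of all kept genes). GstE14, also named noppera-bo, which acts in cholesterol handling for ecdysone synthesis, read 6.90 without exposure and 7.65 with benzene. GstD5 read 6.997 and 7.64, and 8.01 with toluene. No UDP-glycosyltransferase gene of 18 reached the size rule, where 1.78% of all kept genes did, and Ugt37A2 came closest at 0.39. The ecdysteroid kinase-like genes, a family proposed to phosphorylate hormones and foreign compounds, had 2 higher members of 39 (5.13%, against 1.36% of all kept genes). These were CG7135 (7.24 and 7.90) and CG31104 (9.88 and 10.46), and 28 of the 39 genes were above 0. In the esterase list alpha-Est2 was lower with benzene, at 7.41 without exposure, 6.80 with benzene, 7.83 with toluene and 7.33 with formaldehyde. No ABC transporter gene of 16 was a member. Lists of this size are too short for counts of 2 or 0 to mean much. The transporter gene Oatp33Ea, which imports organic anions, was 1.47-fold higher (7.56 and 8.11).

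Counts in the stress gene lists were near the background share. Among 17 chaperone genes, 12 antioxidant genes and 10 genes of the DNA damage response, 0 reached the size rule, where 1.78% of all kept genes did. The largest ratios in these lists were those of Hsc70-3 (0.36), the chaperone of the endoplasmic reticulum, and Hsc70-2 (-0.39), of the peroxidase gene Irc (0.39), and of the p53 target Corp (0.40) and the DNA end-binding gene Ku80 (-0.35). Jheh2, a microsomal epoxide hydrolase gene, read 11.18 and 11.10. These values cover kept genes with a probe set of their own; 15 of the 25 DNA damage genes on the array were too dim.

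**Figure D4:**
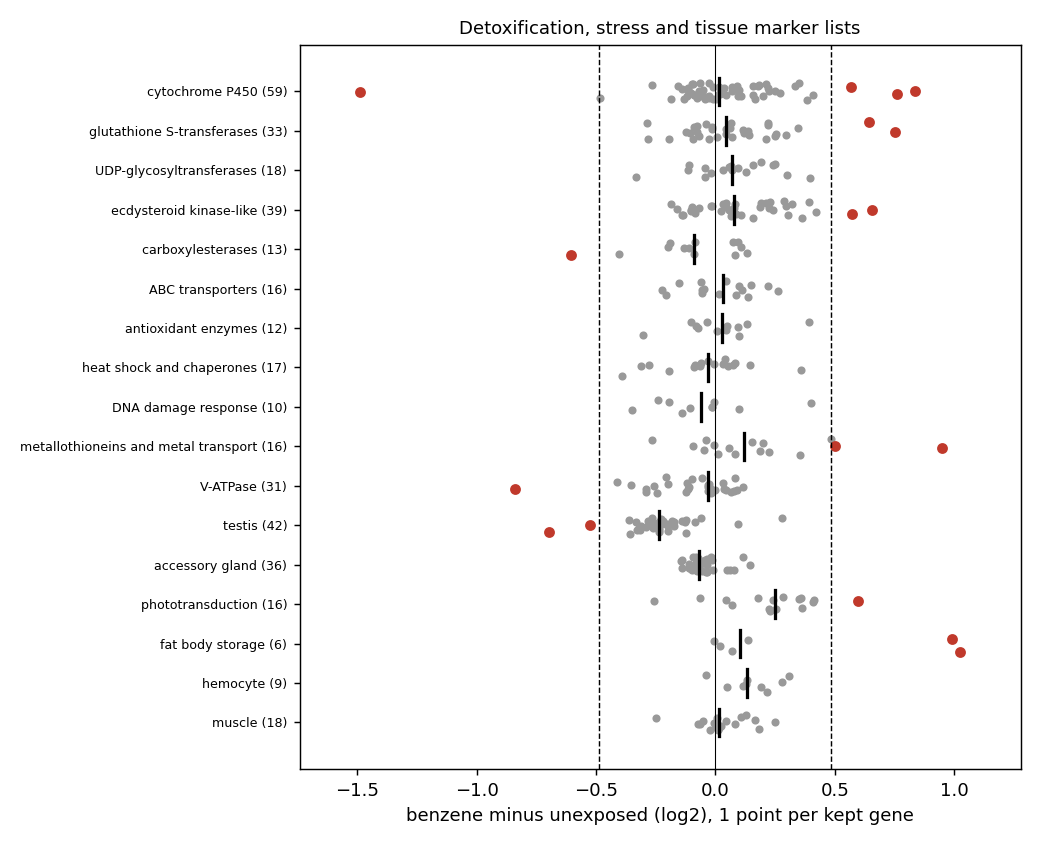
Benzene minus unexposed (log2) for each kept gene of 17 detoxification, stress and tissue marker lists, with members in red, list medians as black bars and 1.4-fold as dashed lines. P450, conjugation and stress lists centre near 0, the testis list at -0.24 and the phototransduction list at 0.25.

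Pepck1 and Miox were metabolic enzyme genes among the lower members. Pepck1, for the enzyme that commits oxaloacetate to glucose synthesis, read 12.67 without exposure, 12.10 with benzene, 12.81 with toluene and 12.84 with formaldehyde. Miox, whose product degrades myo-inositol, read 10.12, 9.35, 9.98 and 9.997. In both cases benzene was lower than each of the other arrays, which lay close together. The sugar-responsive glucosidase gene tobi was at -0.39, and the other genes of the sugar and energy list lay between -0.16 and 0.30. Among the higher members, Gnmt, which uses up surplus methyl groups, read 10.78 and 11.35, and Pu, for the first enzyme of pteridine synthesis, 10.23 and 10.75.

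The fat body genes Fbp1 and Fbp2 were higher with benzene, and higher again with the other vapours. Fbp2 read 7.75 without exposure, 8.78 with benzene, 10.95 with toluene and 10.17 with formaldehyde, and Fbp1, a receptor for larval storage proteins, 7.77, 8.76, 10.90 and 10.26. Benzene thus gave the smallest of the 3 differences for both. Lsp2 (0.13), apolpp (0.07) and fit (0.00) were level with benzene. Tsf1, for the iron-binding transferrin of the blood, read 12.06, 13.01, 12.51 and 13.17, and its second probe set above the array median had a ratio of 1.31. Mtp, which loads lipid onto the lipoproteins of the blood, read 8.07, 8.79, 8.69 and 8.66. MtnC was the metallothionein member, at 0.50.

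Visual chromophore genes included 3 higher members (42.9% of the list, against 1.36% of all kept genes). The chromophore of fly rhodopsin is made from carotenoids taken up with food. On this list 7 of 7 genes were kept and above 0, with a median of 0.35, where 57.1% of all kept genes were below 0. The retinoid dehydrogenase gene rdhB, of the retinal pigment cells, read 7.84 without exposure, 8.77 with benzene, 8.63 with toluene and 8.47 with formaldehyde. Pdh, another pigment cell dehydrogenase gene, read 11.25, 12.002, 11.75 and 11.75. The carotenoid receptor gene ninaD, which is needed for uptake in the gut, read 7.92, 8.51, 8.20 and 8.27. The carotenoid cleavage gene ninaB (0.33) and the receptor gene santa-maria (0.31) fell short of the size rule, and pinta was at 0.06. The corneal lens gene retinin was 1.47-fold higher. The phototransduction list, which shares ninaD and ninaG with this one, had 14 of 16 genes above 0 and a median of 0.25. The chromophore list was assembled after the values had been seen.

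**Figure D5:**
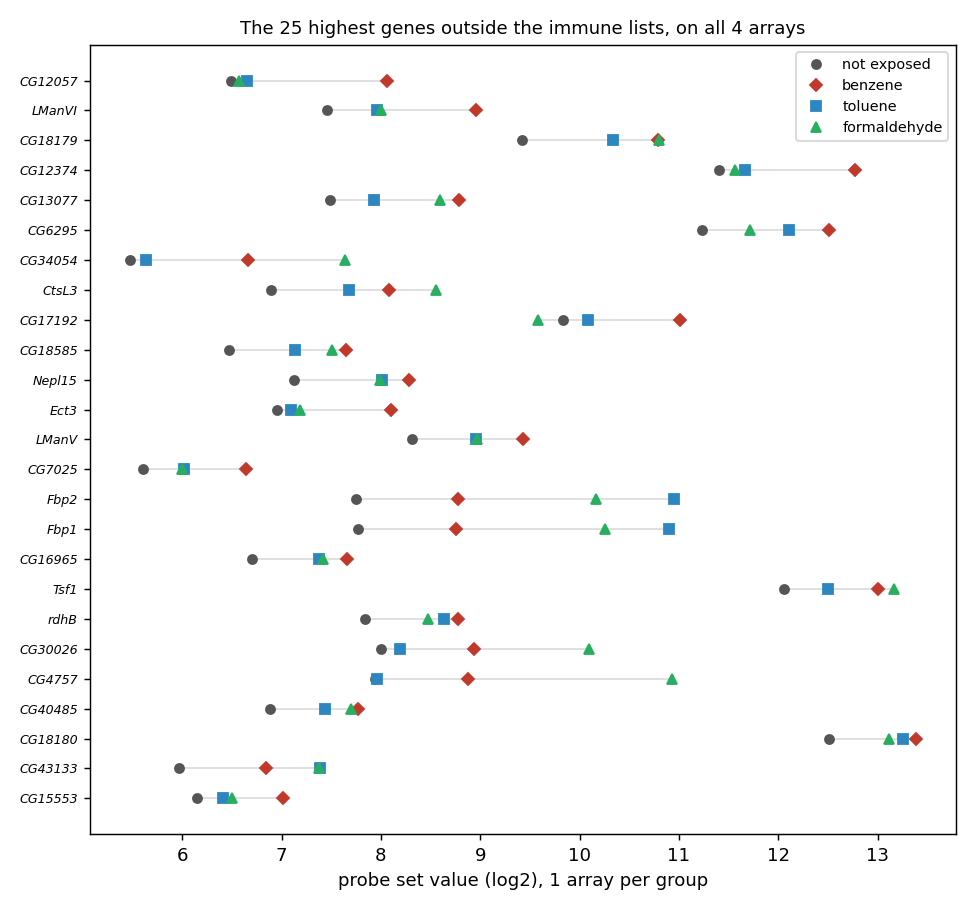
Probe set values (log2) of the 25 highest genes outside the immune lists on each of the 4 arrays, 1 point per array, ordered by the benzene ratio from 1.57 to 0.87. Benzene (red) is the highest of the 4 for 16 of them and the unexposed array (grey) the lowest for 24.

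Several uncharacterised genes were among the highest. CG12057 led the members outside the immune lists, reading 6.49 without exposure, 8.06 with benzene, 6.65 with toluene and 6.57 with formaldehyde (2.96-fold). CG13077 read 7.49, 8.79, 7.93 and 8.59, and CG34054 5.47, 6.66, 5.64 and 7.64. For CG12057 benzene alone stood apart, whereas CG13077 and CG34054 were also higher than the control on the formaldehyde array. The neighbour of CG34054, CG30026, read 7.999, 8.94, 8.19 and 10.09. CG4757 read 7.94, 8.88, 7.96 and 10.93. Short of the very top, the arylalkylamine N-acetyltransferase-like gene AANATL4 read 5.91, 6.69, 6.25 and 5.62, and the cuticle genes Cpr64Aa and Cpr49Ag had ratios of 0.69 and 0.67.

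Some members act in immunity or stress although they are on neither immune list. Bbd (Bombardier), needed for the secreted bomanin peptides, read 11.81 without exposure, 12.55 with benzene, 11.86 with toluene and 13.72 with formaldehyde. The nuclease gene Sid read 7.07, 7.84, 7.39 and 10.20, and the cold-induced gene Fst 5.97, 6.61, 6.31 and 10.92. The cytokine gene Gbp3 read 9.90, 10.45, 10.23 and 10.86. All 4 were highest with formaldehyde. Lower members on neither list included lectin-33A, for a C-type lectin, which read 8.38, 7.43, 8.02 and 7.31. Amnionless, for an endocytic receptor subunit, read 6.66, 5.76, 6.22 and 5.47. Neither of these lower genes is assigned here to immunity or stress.

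Some members lie next to each other in the genome. In the RefSeq order of kept genes, 12 pairs of neighbours were called in the same direction. Of these, 10 had 0 annotated genes between, 1 had 1 and 1 had 6. Such pairs held 21 of 144 placed members (14.6%). No such share was worked out for other kept genes, so these counts are a description. CG8997, CG7916, CG7953 and CG7968 form a run of 4. CG8997 read 11.29 without exposure, 11.95 with benzene, 12.002 with toluene and 11.81 with formaldehyde. CG7916 read 10.04, 10.77, 10.77 and 10.60, CG7953 10.86, 11.56, 11.67 and 11.30, and CG7968 6.97, 7.77, 7.90 and 8.04. All 4 were lowest on the control array, and none was highest with benzene by more than 0.01. Probe sets marked as matching several transcripts were rare among members: 3 of the 145 members (2.07%) had one, against 12.3% of kept genes.

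Comparison with all 3 other arrays picked out fewer genes. Benzene stood at least 1.4-fold above each of them for 21 genes (0.258% of those kept), 9 in the immune lists and 12 outside. The 12 are CG12057, LManVI, CG12374, CG17192, Ect3, CG7025, CG15553, CG3106, Jon99Ci, CG6330, Jon74E and Jon25Bi. Of these, 7 are in the protease, lipase and glycosidase lists, which hold 2.59% of the kept genes, and Ect3 is in none of them. Those families were put together after the values had been seen. CG7025 (5.60 without exposure) was kept through its benzene value alone, so the 7 are a description. CG15553 read 6.15 without exposure and 7.02 with benzene, CG3106 7.29 and 8.13, and CG6330 9.84 and 10.45.

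Benzene stood at least 1.4-fold below each other array for 13 genes (0.16%). Besides CG34040, Npc2f, Cyp4e3, Peritrophin-15a, Mal-A7, CG5966, Miox, Pepck1 and alpha-Est2 these were CG18404, CG5767, CG15263 and CG14957. CG18404 read 11.48 without exposure, 10.29 with benzene, 11.22 with toluene and 11.56 with formaldehyde, and CG5767 9.50, 8.41, 8.99 and 9.34. CG15263 read 8.19, 7.53, 9.36 and 8.38. CG4830, by contrast, read 8.16, 6.99, 6.84 and 7.44, so that toluene was lower than benzene. Among all 34 lower members, benzene was the lowest array for 28, formaldehyde for 5 and toluene for 1.

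Testis genes leaned lower on the benzene array than without exposure. Of 42 kept genes of the testis list, 40 were below 0, where 57.1% of all kept genes were, the median was -0.24 and 2 were members. The spermatid mitochondrial fusion gene fzo read 7.46 without exposure, 6.76 with benzene, 6.96 with toluene and 7.08 with formaldehyde, and the testis proteasome gene Prosalpha3T 7.33, 6.80, 6.97 and 7.02. These 2 were unlike most of the list in being lowest with benzene: formaldehyde was the lowest array for 35 of the 42 genes, and benzene for 4. Accessory gland genes had a median of -0.07, with 31 of 36 below 0 and 0 members, where 1.78% of all kept genes were members. Other marker lists had medians of 0.13 for hemocytes, 0.01 for muscle, -0.12 for neurons and -0.02 for Malpighian tubules. The tubule median turned positive under both other scalings, and the neuron median was -0.0083 over all genes of that list on the array and turned positive under 3 other settings. The part of any shift in tissue makeup in the gene differences above was not tested.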

How the data were processed

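The values deposited by the authors are on a log2 scale, 1 per probe set and array, in a single table for 4 arrays. Per the labels' protocols, 300 ng of column-purified total RNA was labelled with an Affymetrix 3' IVT kit. Per the submitters' processing notes, RMA, MAS5 and Affymetrix Expression Console 1.1 were used, with no roles given, so the method behind the table is not stated. Both methods bring arrays to a common scale, which removes overall differences in RNA amount. The sources used here name no genome build. Groups came from the sample titles.

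Values were used as deposited. Probe sets with 1 symbol in the platform annotation (13646 of 18769 that are not array controls) were reduced to 11981 genes by the highest mean over the 4 arrays. RefSeq's Release 6 table gave synonyms and gene order for 8108 of the 8134 kept genes, and 144 of 145 members. With 1 array per group no test was possible; the number of arrays limits the precision. Genes were counted by a size rule of 1.4-fold. Named genes are the 25 highest and 25 lowest outside the immune lists, up to 4 per list by size, other members within their groups, and the genes at the limit; further family members are given where a family is described. Members and the 33 gene lists were chosen with earlier results of these data known, and 12 family lists were added after the values were seen. The counting was tested on simulated data. Alternatives were other filters, scalings, probe set rules and size rules. Python 3.11.15 with pandas 2.3.3 and numpy 2.4.6 was used. No sequence is shown, since no sequence table was used here.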

Additional observations from a re-analysis of the deposited data

Results flagged for a closer look

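Probe sets that the comparison leaves out, because the annotation gives them no gene name or several, also differed from the control array. Of 746 unnamed probe sets that reached the array median, 24 were at least 1.4-fold higher with benzene and 0 lower, and 11 were past 2-fold. The log2 ratios of these 11 were 5.81 (1632719_at), 5.23 (1625124_at), 5.18 (1627551_s_at), 4.59 (1641419_at), 2.63 (1631697_at), 2.58 (1633545_at), 2.50 (1625164_at), 2.22 (1623635_at), 1.76 (1627271_at), 1.57 (1635549_at) and 1.29 (1633053_at). The first of them read 3.73 without exposure, 9.54 with benzene, 3.45 with toluene and 5.13 with formaldehyde. Its control value lay below the background of 4.88, so its difference is a lower bound, at least 25.3-fold. Of 279 probe sets shared by several named genes, 7 were higher and 3 lower, and those past 2-fold were 1636293_at (CG42740 and CG2217, 2.23) and 1625698_at (SPH93 and RSG7, 1.07). Their genes could not be assigned, so they enter no count of genes.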

How the results depend on the processing

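With 1 array per group, no result has an error, and nothing here separates exposure from preparation. No paired analysis was possible because each group had 1 array. The count of higher genes moved from 111 to 66 with the dim filter at the 75th percentile and to 27 at 2-fold. The count of lower genes moved from 34 to 58 with no filter, 16 with the filter at the 75th percentile and 8 at 2-fold. Genes above all 3 other arrays fell from 21 to 10 at 2-fold, and genes below all 3 from 13 to 8 at 1.5-fold and 3 at 2-fold. The smaller counts follow from the stricter rule itself. Median centring gave 126 higher and 28 lower genes, quantile normalisation 121 and 31, and the mean over probe sets 111 and 33. Leaving out probe sets marked as matching several transcripts, an alternative chosen after seeing the data, gave 110 and 34. The same 111 higher genes were called under both scalings. No member changed sign under these settings, and 3 of 145 moved by more than 0.15 with the mean over probe sets. Near-zero list medians did change sign: P450, glutathione S-transferase, carbohydrate digestion, Npc2, cathepsin and maltase lists fell below 0, and the neuron and carboxylesterase lists rose above it, with the filter at the 75th percentile; the chaperone, enterocyte and Malpighian tubule medians turned positive under both scalings. The DNA damage list had no gene left with the filter at the 75th percentile, so it has no value there.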

Other observations

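Odorant binding protein genes were mostly slightly below 0 on the benzene array. Of 37 kept genes for odorant and pheromone binding proteins, 27 were below 0, where 57.1% of all kept genes were, and the median was -0.10, or -0.04 over all 63 on the array. The list includes Obp56g, which is also on the accessory gland list. The only member was a5, for a lipid-binding protein of the antenna, which read 8.01 without exposure, 7.34 with benzene, 7.56 with toluene and 7.23 with formaldehyde. The alcohol-sensing binding protein gene lush was at -0.40, Obp69a at -0.35 and Obp28a at -0.32, whereas Obp83g was at 0.30. Genes for juvenile hormone binding, breakdown and response were below 0 in 12 of 13 cases, where 57.1% of all kept genes were. Their median was -0.08, and 0 were members. The esterase gene Jhedup was lowest at -0.40, and the response gene Kr-h1 was at -0.21.

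Clock genes differed little: 0 of 11 were members, where 1.78% of all kept genes were, with tim at -0.18, per at 0.09 and a median of -0.04. Of 41 ribosomal protein genes 30 were below 0, but by a median of -0.03, which turned positive under median centring.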
